A study of Mus musculus with 15 samples.

Results

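Lung basophils of untreated mice were compared with lung natural helper cells of untreated mice, using 4 of the 15 libraries of the series: 2 of naive basophils and 2 of naive natural helper cells. These 4 were chosen by their labels alone. Both cell types came from naive C57BL6/J mice with no transgene or treatment named in the labels. Basophils were gated as cells positive for the high-affinity IgE receptor and CD49b and negative for c-kit. Natural helper cells were gated by the absence of lineage markers and the presence of Thy1.2, the IL-7 receptor alpha chain and CD25. The other 11 libraries hold naive eosinophils, cells of the same lung populations after nasal papain and 1 library of papain natural helper cells labelled 3'UTRKO. Papain is an allergenic protease from papaya. These libraries enter the fit below only to estimate the spread. The series set out to examine mRNA levels in each sorted lung population. The labels do not say whether the 2 libraries of a group are separate mice or pools of mice, so every p-value measures the spread between these samples only.

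Basophils are granulocytes that carry IgE on their surface and release histamine, proteases, lipid mediators and IL-4 when antigen crosslinks it. Natural helper cells, also called group 2 innate lymphoid cells, are lymphocytes without an antigen receptor that release IL-5 and IL-13 when epithelial alarmins such as IL-33 reach them. Both are counted among the sources of type 2 cytokines in the lung, and they reach that output through different receptors.

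Values are FPKM, fragments scaled to transcript length and library size, rounded to whole numbers in the deposited table, so levels of different genes may be compared. Each level is given for the 2 libraries of a group in the order of their labels, library 1 and then library 2. Differences are on the scale of log2(FPKM + 1), basophils minus natural helper cells, with their standard error. A gene was called when limma's Benjamini-Hochberg adjusted p was under 0.05 and the log2 difference was 1 or more in either direction. For a gene listed at 0 in a group the difference depends on the pseudocount and is no measure of fold. In sorted bulk RNA, fewer cells of a type and less RNA per cell cannot be told apart.

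The 4 libraries had FPKM totals between 428145 and 506406, with 10516 to 12076 of 21110 genes above 0. Replicates correlated across genes at a Pearson r of 0.924 in basophils and 0.923 in natural helper cells. Where the mean was at least 10 FPKM, 9.65% of genes differed more than 2-fold between the basophil libraries and 6.55% between the natural helper cell libraries. Small RNA genes held 12.7% and 20.2% of the total in basophils, and 26.0% and 23.1% in natural helper cells. Read depth is unknown, since FPKM does not keep it.

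The 4 marker genes named for the 2 cell types separated the groups as labelled. Mcpt8, the basophil granule protease, had 824 and 252 FPKM in basophils and was listed at 0 in both natural helper cell libraries (8.84 ± 0.70, limma adjusted p = 8.03e-05). Gata2, the transcription factor of basophils and mast cells, had 664 and 845 FPKM in basophils, against 1 and 0 FPKM in natural helper cells (9.05 ± 0.69, adjusted p = 6.3e-05). Both genes separated the groups with a wide gap, although Mcpt8 differed more than 3-fold between the basophil libraries. Il5, the eosinophil growth factor, was listed at 0 in both basophil libraries and had 501 and 2283 FPKM in natural helper cells (-10.06 ± 0.57, adjusted p = 1.11e-05). Gata3, the transcription factor of type 2 lymphocytes, had 2 and 1 FPKM in basophils, against 168 and 273 FPKM in natural helper cells (-6.46 ± 0.60, adjusted p = 0.000192). Neither gene came near the other group's range.

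Of 12 basophil markers tested, 11 were higher in basophils, and of 14 natural helper cell markers tested, 12 were higher in natural helper cells. Over all 14257 genes tested, 6.39% were called higher in basophils and 12.3% higher in natural helper cells. These shares are the background for each count of list members below. Il3ra, a chain of the IL-3 receptor, was the basophil marker that missed the call, at 43 and 48 FPKM in basophils and 6 and 10 FPKM in natural helper cells (adjusted p = 0.0543). Il7r and Areg missed it among the natural helper cell markers. Il7r, which the natural helper cell gate uses as a protein, had 156 and 88 FPKM in basophils, against 221 and 177 FPKM in natural helper cells (-0.75 ± 0.61, adjusted p = 0.422). Areg, the growth factor amphiregulin, had 72 and 148 FPKM in basophils, against 237 and 349 FPKM in natural helper cells (-1.47 ± 0.76, adjusted p = 0.212). The libraries did not overlap for any of these 3 genes, but the differences were within the spread that the test allows. That spread is estimated over all 15 libraries and not from the 4 compared. In papain basophils Il3ra had 10 and 73 FPKM, Areg 32 and 157 FPKM and Il7r 85 and 40 FPKM. Fcer1a, Itga2, Thy1 and Il2ra also separated the groups, as genes of proteins used for sorting. They and Ms4a2, a further chain of the gated IgE receptor, are included in the marker counts above and are not results of the comparison. The marker lists were chosen with earlier results of these data known.

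**Figure D1:**
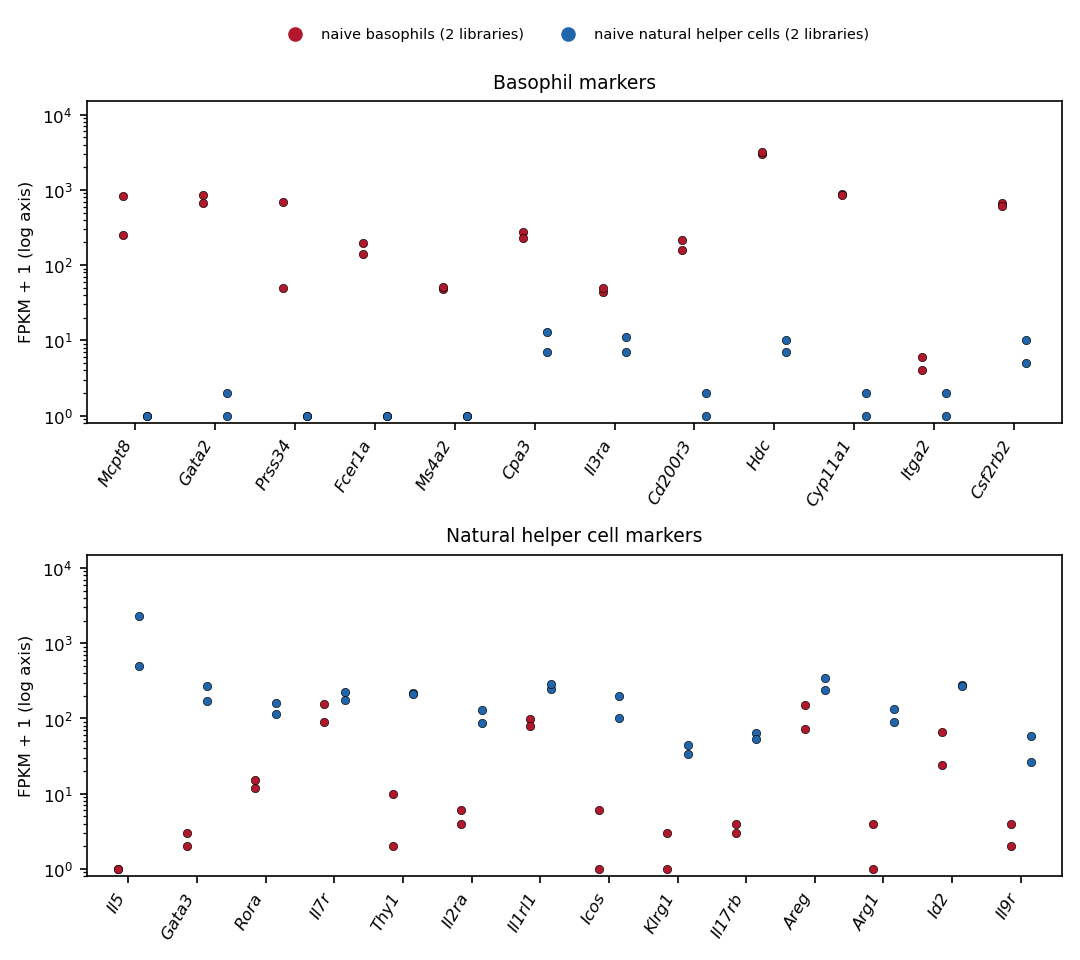
Marker genes of basophils (top) and natural helper cells (bottom) in FPKM + 1 on a log axis, with 1 point per library, red for naive basophils and blue for naive natural helper cells. Il5 lies at 0 FPKM in both basophil libraries and Mcpt8 at 0 FPKM in both natural helper cell libraries, while Il7r and Areg lie close in the 2 cell types.

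Markers of other cells were present in both sorts, in different kinds. In basophils, 7 of 9 B cell markers were called higher, and the 9 summed to 187 and 340 FPKM in basophils, against 7 and 5 FPKM in natural helper cells. Cd79a, part of the B cell antigen receptor, had 64 and 159 FPKM in basophils, against 0 and 1 FPKM in natural helper cells. The count of B cell markers was 5 without basophil library 1, 3 without basophil library 2, 4 without natural helper cell library 1 and 3 without natural helper cell library 2. Of 12 epithelial markers, 5 were called higher in basophils and 7 were not called, among them Epcam, Krt8 and Krt18. The 12 summed to 6700 and 8780 FPKM in basophils, against 108 and 1851 FPKM in natural helper cells. Scgb1a1, the club cell secretory protein, held most of these sums. Scgb1a1 had 6363 and 8531 FPKM in basophils, against 87 and 1809 FPKM in natural helper cells. The natural helper cell libraries differed for it by more than 20-fold. Its adjusted p was 0.0362 and ran from 0.00193 to 0.244 over the alternatives, with 0.0821 without basophil library 1, 0.158 without basophil library 2 and 0.14 without natural helper cell library 1. Cdh1, the epithelial cadherin, had 139 and 150 FPKM in basophils, against 1 and 1 FPKM in natural helper cells (adjusted p = 0.000709). Of the 5 epithelial calls, only that of Cdh1 was kept in every fit that left out a single library.

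Mast cell proteases were also detected in the basophil libraries. Of 7 mast cell markers tested, 4 were called higher in basophils and 1, Kit, higher in natural helper cells. Mcpt1 and Mcpt2 were at 0 FPKM in all 4 libraries. Beside 3 proteases, Mrgprb1 was called higher in basophils (limma adjusted p = 0.00113), and it kept its call in every fit that left out a single library. Mcpt4 had 105 and 153 FPKM, Cma1 90 and 94 FPKM and Tpsb2 89 and 101 FPKM in basophils, and all 3 were listed at 0 in natural helper cells. Kit, the mast cell growth factor receptor that the basophil gate excludes as a protein, had 7 and 7 FPKM in basophils, against 81 and 92 FPKM in natural helper cells. The 3 protease calls were all lost without basophil library 2 (adjusted p = 0.0583, 0.0802 and 0.0757 for Mcpt4, Cma1 and Tpsb2) and without natural helper cell library 1 (0.0529, 0.0797 and 0.0738). Cma1 and Tpsb2 were lost without natural helper cell library 2 as well (0.0719 and 0.0664), and Cma1 also without basophil library 1 (0.0512). Over the alternatives their adjusted p ran from 0.00101 to 0.0583 for Mcpt4, 0.000434 to 0.0802 for Cma1 and 0.000716 to 0.0757 for Tpsb2.

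In natural helper cells, 6 of 7 fibroblast markers and 5 of 8 lymphatic endothelial markers were called higher. The fibroblast markers summed to 49 and 5 FPKM in basophils, against 468 and 326 FPKM in natural helper cells, and the lymphatic markers summed to 10 and 0 FPKM in basophils, against 222 and 174 FPKM in natural helper cells. Dcn, a collagen-binding matrix protein, had 6 and 1 FPKM in basophils, against 232 and 97 FPKM in natural helper cells (-5.34 ± 0.55, adjusted p = 0.000324). Stab2, a scavenger receptor of lymphatic and sinusoidal endothelium, was listed at 0 in both basophil libraries and had 73 and 47 FPKM in natural helper cells (-5.90 ± 0.50, adjusted p = 0.000111). Fibroblast calls numbered 2 without basophil library 2, 3 without natural helper cell library 1 and 2 without natural helper cell library 2. T cell markers summed to 85 and 27 FPKM in basophils, against 346 and 368 FPKM in natural helper cells, with 2 of 9 called, 5 called without basophil library 1 and 0 without any other single library. Myeloid markers differed between the basophil libraries themselves: Lyz2, the myeloid lysozyme, had 429 and 77 FPKM in basophils, against 78 and 5 FPKM in natural helper cells, and the complement gene C1qa had 32 and 1 FPKM in basophils, against 0 and 0 FPKM in natural helper cells. Leaving out basophil library 2 raised the called monocyte and macrophage markers to 6, against 2 of 11 with all libraries and 1 without natural helper cell library 2. Eosinophil markers gave 3 of 10 higher in basophils and 0 higher in natural helper cells (4 and 0 at an unadjusted p under 0.05), with sums of 85 and 77 FPKM in basophils, against 24 and 3 FPKM in natural helper cells. Neutrophil markers gave 2 of 8 higher in basophils and 0 higher in natural helper cells (4 and 0 at an unadjusted p under 0.05). They summed to 270 and 538 FPKM in basophils, against 174 and 21 FPKM in natural helper cells. Their count towards basophils was 4 under median-ratio scaling and 3 under quantile normalization. NK cell markers gave 1 of 8 in each direction, and red blood cell markers 0 of 3 in either. The part that any of these other cells played in the differences below was not tested.

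Across all genes tested, 911 were higher in basophils and 1749 higher in natural helper cells, 18.7% of them in all. The median difference of all genes was -0.34, and it moved to -0.08 with median-ratio scaling and to -0.02 with quantile normalization. Of the called genes, 34.2% were higher in basophils, against 50.1% and 51.9% under those 2 scalings, so the surplus of genes higher in natural helper cells depends on the scaling. Under both scalings 904 of the 911 and 1089 of the 1749 kept their call. Without basophil library 2, 651 genes were higher in natural helper cells, and without natural helper cell library 1 and library 2 there were 779 and 1161. Genes higher in basophils numbered 605 without natural helper cell library 2. The groups' libraries did not overlap for 48.2% of the genes tested.

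**Figure D2:**
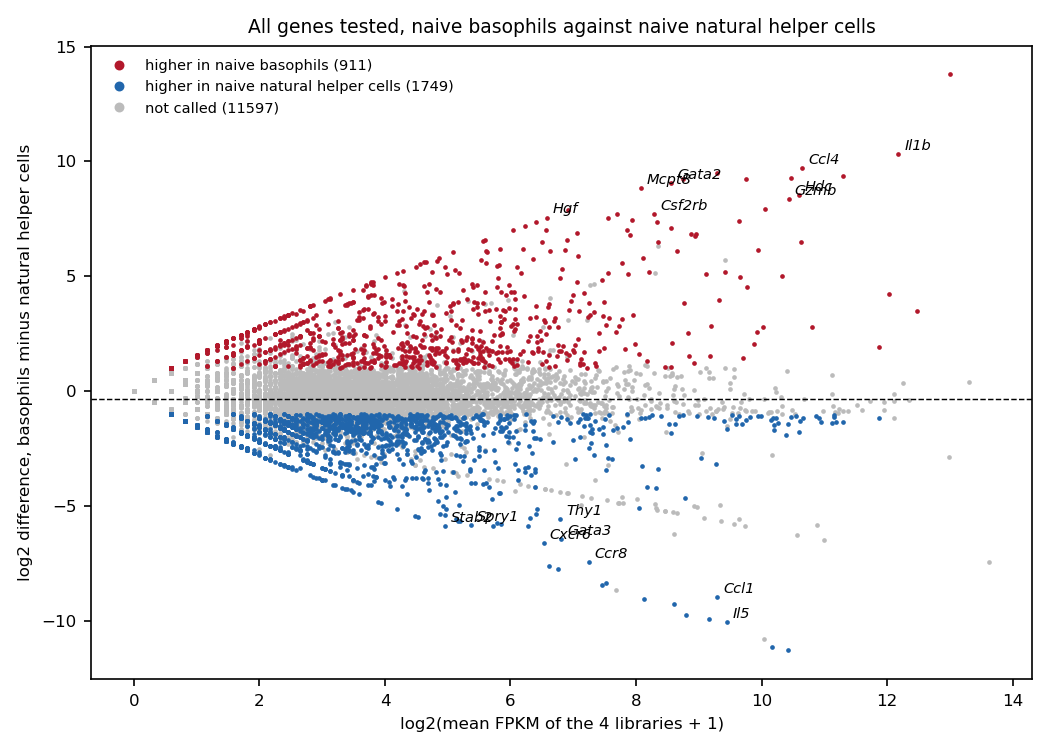
Log2 difference, basophils minus natural helper cells, of the 14257 genes tested against log2(mean FPKM of the 4 libraries + 1), with genes called higher in naive basophils in red, genes called higher in naive natural helper cells in blue and genes not called in grey. The dashed line marks the median of all genes at -0.34; Il1b and Ccl4 lie at the top and Il5 and Ccl1 at the bottom among the labelled genes.

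Beside markers and genes described with their lists, the largest differences towards basophils included those of Il1b, Ifitm1, Irg1, Rab44 and Hgf. Il1b, the precursor of IL-1beta, had 9357 and 9161 FPKM in basophils, against 25 and 1 FPKM in natural helper cells (10.33 ± 1.10, adjusted p = 0.000368). Ifitm1, an interferon-inducible membrane protein, had 3067 and 2568 FPKM in basophils, against 6 and 2 FPKM in natural helper cells. Irg1, the enzyme that makes itaconate, had 2431 and 1819 FPKM in basophils, against 10 and 6 FPKM in natural helper cells (7.91 on the log2 scale). Rab44, a large Rab GTPase, had 426 and 396 FPKM in basophils, against 1 and 1 FPKM in natural helper cells. Hgf, the hepatocyte growth factor, had 222 and 156 FPKM in basophils and was listed at 0 in both natural helper cell libraries. All 5 genes had close values in the 2 basophil libraries and no overlap with natural helper cells.

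Towards natural helper cells, after Il5 and Ccl1, the list held receptors, 3 lymphatic chemokine genes and a few genes of other roles. Ccr8, a chemokine receptor of type 2 lymphocytes, had 2 and 0 FPKM in basophils, against 291 and 309 FPKM in natural helper cells (-7.44 ± 1.22, adjusted p = 0.00361). Spry1, an inhibitor of receptor tyrosine kinase signalling, had 1 and 0 FPKM in basophils, against 89 and 71 FPKM in natural helper cells (-5.83 ± 0.39, adjusted p = 3.15e-05). Hlf, a transcription factor of the PAR bZIP family, was listed at 0 in basophils and had 36 and 52 FPKM in natural helper cells. Ccl21a had 2 and 0 FPKM in basophils, against 103 and 102 FPKM in natural helper cells; its copies Ccl21b and Ccl21c are nearly identical, so the 3 may share reads and count as 1 signal. Dpt, the matrix protein dermatopontin, had 1 and 0 FPKM in basophils, against 85 and 51 FPKM in natural helper cells. Ccl21a is itself part of the lymphatic marker sum given above, so that sum is not a separate observation. In that list Lyve1, Prox1 and Reln were not called. Dpt, which is not in the fibroblast list, stood beside the fibroblast marker sum given above.

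Cytokine genes were divided between the cell types, with 5 of 22 tested higher in basophils and 5 higher in natural helper cells. Il4, the cytokine that drives IgE class switching, had 353 and 319 FPKM in basophils, against 19 and 25 FPKM in natural helper cells (3.88 ± 0.40, adjusted p = 0.00032). Il13, its close relative, had 169 and 226 FPKM in basophils, against 93 and 218 FPKM in natural helper cells (0.45 ± 0.55, adjusted p = 0.599). For Il4 the groups lay more than 10-fold apart, while for Il13 they overlapped. Il9, a mast cell growth factor, was near 0 everywhere, with 1 and 0 FPKM in basophils and 1 and 2 FPKM in natural helper cells.

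Il6, an acute phase cytokine, had 2713 and 3535 FPKM in basophils, against 29 and 38 FPKM in natural helper cells (6.50 ± 0.31, adjusted p = 6.49e-06). Osm, oncostatin M of the same cytokine family, had 835 and 1136 FPKM in basophils, against 11 and 5 FPKM in natural helper cells (6.84 ± 0.66, adjusted p = 0.000253). Csf1, the macrophage growth factor, had 180 and 177 FPKM in basophils, against 15 and 12 FPKM in natural helper cells (3.64 ± 0.43, adjusted p = 0.000638). In each of the 3 genes both basophil libraries lay more than 10-fold above both natural helper cell libraries. Together with Il4 and Il1b they make up the members called higher in basophils.

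The members called higher in natural helper cells were Il5, Csf2, Il3, Il2 and Lif. Csf2, which encodes GM-CSF, had 27 and 35 FPKM in basophils, against 466 and 750 FPKM in natural helper cells (-4.22 ± 0.60, adjusted p = 0.00171). Il3, the basophil growth factor, had 2 and 0 FPKM in basophils, against 38 and 77 FPKM in natural helper cells (-4.99 ± 0.49, adjusted p = 0.000256). Il2, which drives T cell proliferation, had 3 and 6 FPKM in basophils, against 91 and 99 FPKM in natural helper cells (-4.18 ± 0.30, adjusted p = 4.62e-05). Lif, a member of the IL-6 family like Osm, went the other way from Osm, at 8 and 9 FPKM in basophils, against 79 and 54 FPKM in natural helper cells (-2.81 ± 0.33, adjusted p = 0.000639). Tnf had 37 and 18 FPKM in basophils, against 53 and 24 FPKM in natural helper cells, with overlapping libraries (adjusted p = 0.508). The 5 calls in each direction were kept when any of the 4 libraries was left out.

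**Figure D3:**
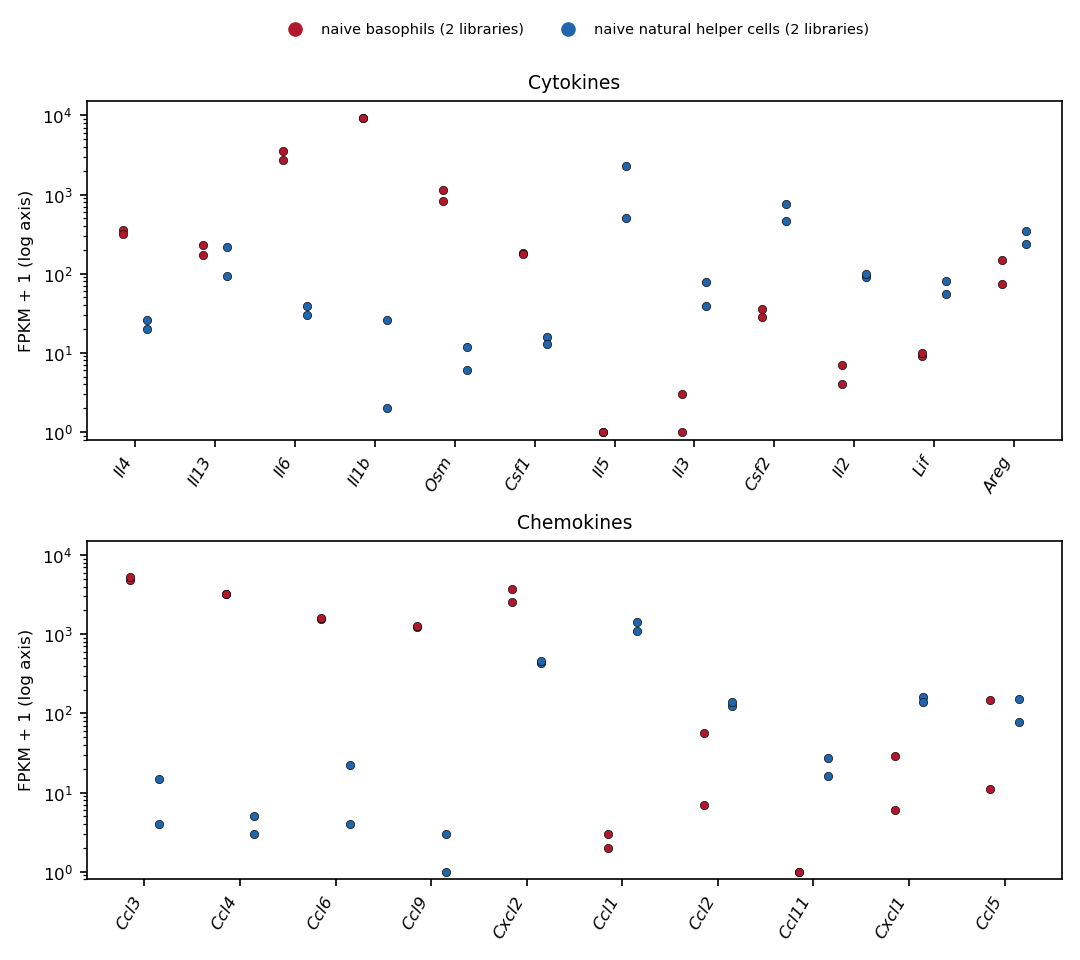
Cytokine (top) and chemokine genes (bottom) in FPKM + 1 on a log axis, with 1 point per library, red for naive basophils and blue for naive natural helper cells. Il6, Il1b, Ccl3 and Ccl4 lie above 2500 FPKM in basophils and below 50 FPKM in natural helper cells, Il5 and Ccl1 lie the other way, and Il13 overlaps.

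Chemokine genes were divided in the same manner (6.39% and 12.3% for all genes), with 5 of 22 higher in basophils and 4 higher in natural helper cells. Ccl3 and Ccl4, macrophage inflammatory proteins that attract leukocytes, were among the highest of them in basophils. Ccl3 had 4805 and 5266 FPKM in basophils, against 14 and 3 FPKM in natural helper cells (9.34 ± 0.91, adjusted p = 0.000256). Ccl4 had 3208 FPKM in both basophil libraries, against 4 and 2 FPKM in natural helper cells (9.69 ± 0.72, adjusted p = 5.35e-05). Ccl9, a CCR1 ligand, had 1235 and 1255 FPKM in basophils, against 2 and 0 FPKM in natural helper cells, and Ccl6, its close relative, had 1545 and 1616 FPKM in basophils, against 21 and 3 FPKM. All 4 of these genes had nearly equal values in the 2 basophil libraries. Cxcl2, a neutrophil attractant, had 2589 and 3705 FPKM in basophils, against 430 and 463 FPKM in natural helper cells (2.79 ± 0.65, adjusted p = 0.0177). The Cxcl2 call was lost without basophil library 2 (adjusted p = 0.109), natural helper cell library 1 (0.0918) or natural helper cell library 2 (0.0732), and its adjusted p ran from 0.0033 to 0.109 over the alternatives.

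Ccl1, the ligand of CCR8, had 1 and 2 FPKM in basophils, against 1100 and 1408 FPKM in natural helper cells (-8.99 ± 0.57, adjusted p = 2.63e-05). Natural helper cells carried both Ccl1 and the Ccr8 receptor mRNA given above, each at 2 FPKM or less in basophils. Cxcl1, another neutrophil attractant, had 28 and 5 FPKM in basophils, against 160 and 140 FPKM in natural helper cells (-3.51 ± 0.62, adjusted p = 0.00487), the opposite side from Cxcl2. Ccl2 and Ccl11 were also called higher in natural helper cells, but both calls were lost without basophil library 2 (adjusted p = 0.154 and 0.119), natural helper cell library 1 (0.145 for both) or natural helper cell library 2 (0.146 and 0.0847), and that of Ccl11 without basophil library 1 (0.0792). Over the alternatives their adjusted p ran from 0.00157 to 0.267 for Ccl2 and from 0.00244 to 0.145 for Ccl11. Ccl5 had 148 and 10 FPKM in basophils, against 153 and 77 FPKM in natural helper cells, and was not called (adjusted p = 0.406, and 0.0384 without basophil library 1 in a range of 0.0384 to 0.849).

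Of 25 chemoattractant receptors tested, 7 were higher in basophils, all of them kept when single libraries were left out, and 5 were higher in natural helper cells. C5ar1 and C3ar1 encode the receptors of the complement fragments C5a and C3a. C5ar1 had 100 and 78 FPKM in basophils, against 2 and 0 FPKM in natural helper cells (5.69 ± 0.50, adjusted p = 0.000133). C3ar1 had 78 and 32 FPKM in basophils and was listed at 0 in both natural helper cell libraries (5.67 ± 0.48, adjusted p = 0.000111). Ccr1, a receptor of CCL3 and CCL9, had 71 and 61 FPKM in basophils, against 2 and 0 FPKM in natural helper cells (5.27 ± 0.54, adjusted p = 0.000295). Cxcr4, the receptor of CXCL12, was present in both cell types and higher in basophils, at 769 and 470 FPKM, against 133 and 147 FPKM in natural helper cells (2.10 ± 0.40, adjusted p = 0.0073). Cxcr6, a homing receptor of tissue lymphocytes, had 2 and 0 FPKM in basophils, against 121 and 242 FPKM in natural helper cells (-6.64 ± 1.33, adjusted p = 0.00923). Its adjusted p was 0.0722 without basophil library 2 and 0.0618 without natural helper cell library 2, in a range of 0.00243 to 0.0722 over the alternatives. The receptor genes higher in natural helper cells fell to between 2 and 3 when any of the 4 libraries was left out, and Ccr8 alone kept its call in every such fit.

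The receptors through which each cell type senses cytokines differed by family. Both beta common chain genes were higher in basophils. Csf2rb, the signalling chain shared by the IL-3, IL-5 and GM-CSF receptors, had 651 and 586 FPKM in basophils, against 2 and 2 FPKM in natural helper cells (7.69 ± 0.32, adjusted p = 5.21e-06). Csf2rb2, a mouse copy that pairs with the IL-3 receptor, had 667 and 616 FPKM in basophils, against 4 and 9 FPKM in natural helper cells (6.50 ± 0.29, adjusted p = 5.46e-06). The 2 genes are close copies and may share reads. Of the 5 genes of the family tested, these 2 were called. Il3ra, Il5ra and Csf2ra were not called in limma (adjusted p = 0.0543, 0.0877 and 0.0953). Under median-ratio scaling and under quantile normalization all 5 were called higher in basophils. The shared chain was high in the basophils, whereas the ligand mRNAs Il5, Csf2 and Il3 were high in the natural helper cells.

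Common gamma chain receptors showed the other pattern, with 0 of 8 higher in basophils in limma (0 at an unadjusted p under 0.05) and 4 higher in natural helper cells, one of them the sorting gene Il2ra. Il4ra, the IL-4 receptor chain, had 21 and 22 FPKM in basophils, against 67 and 96 FPKM in natural helper cells (-1.85 ± 0.29, adjusted p = 0.00285). Il9r, the IL-9 receptor, had 3 and 1 FPKM in basophils, against 57 and 25 FPKM in natural helper cells (-3.78 ± 0.48, adjusted p = 0.0009). Il2rg, the shared gamma chain itself, was abundant in both, at 191 and 179 FPKM in basophils and 278 and 319 FPKM in natural helper cells, and missed the call (-0.68 ± 0.23, adjusted p = 0.0632).

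Alarmin receptors were split, with 5 of 11 higher in basophils and 2 higher in natural helper cells, and all 7 calls were kept when single libraries were left out. Il1rl1, the IL-33 receptor ST2, was present in both types and had 98 and 79 FPKM in basophils, against 244 and 288 FPKM in natural helper cells (-1.58 ± 0.28, adjusted p = 0.00477). Il17rb, a chain of the IL-25 receptor, had 2 and 3 FPKM in basophils, against 64 and 53 FPKM in natural helper cells (-4.10 ± 0.76, adjusted p = 0.00642). Il1rap, the accessory chain of the IL-1 and IL-33 receptors, had 16 and 15 FPKM in basophils, against 3 and 1 FPKM in natural helper cells (2.54 ± 0.39, adjusted p = 0.00256). The accessory chain was higher where Il1rl1 was lower. Crlf2, the TSLP receptor, had 57 and 75 FPKM in basophils, against 23 and 25 FPKM in natural helper cells (1.41 ± 0.24, adjusted p = 0.00426). Il18rap, a chain of the IL-18 receptor, had 156 and 165 FPKM in basophils, against 29 and 27 FPKM in natural helper cells (2.48 ± 0.31, adjusted p = 0.0009). Il1r2, the decoy IL-1 receptor, had 82 and 100 FPKM in basophils, against 6 and 2 FPKM in natural helper cells (4.32 ± 0.52, adjusted p = 0.000709).

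Among other cytokine receptors, 4 of 22 were higher in basophils and 5 higher in natural helper cells, beside 6.39% and 12.3% of all genes. The 5 include Kit, whose protein the basophil gate excludes, so its direction is not independent of the sort. Il27ra, the IL-27 receptor, had 4 and 2 FPKM in basophils, against 52 and 36 FPKM in natural helper cells (-3.52 ± 0.51, adjusted p = 0.00196). The 4 calls towards basophils numbered 1 without basophil library 1, 1 without natural helper cell library 1 and 2 without natural helper cell library 2, and none of the 4 members kept its call in every such fit. The 5 calls towards natural helper cells numbered 3 without basophil library 2 and 3 without natural helper cell library 1.

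IgE receptor signalling and histamine genes were higher in basophils for 11 of 15 members tested, and 0 were higher in natural helper cells in limma (0 at an unadjusted p under 0.05). Fcer1a, Ms4a2 and Fcer1g encode chains of the IgE receptor by which basophils were sorted. They are in the count above, and their direction is not independent of the sort. Ms4a2, the beta chain of the same receptor, had 47 and 50 FPKM in basophils and was listed at 0 in both natural helper cell libraries (5.63 ± 0.29, adjusted p = 8.82e-06). Fcer1g, the signalling chain shared by IgE and IgG receptors, had 581 and 563 FPKM in basophils, against 22 and 10 FPKM in natural helper cells (5.17 ± 0.51, adjusted p = 0.000273). Hdc, the enzyme that makes histamine, had 2955 and 3199 FPKM in basophils, against 6 and 9 FPKM in natural helper cells (8.52 ± 0.57, adjusted p = 3.15e-05). Slc18a2, the transporter that loads histamine into granules, had 905 and 687 FPKM in basophils, against 10 and 11 FPKM in natural helper cells (6.10 ± 0.25, adjusted p = 5.21e-06). For each of these 4 genes the basophil libraries had close values, far above both natural helper cell libraries. Fyn, a Src family kinase used by both lineages, had 37 and 16 FPKM in basophils, against 36 and 22 FPKM in natural helper cells (adjusted p = 0.772). The median difference of the 15 members was 3.09 above that of all genes. IgG receptors followed: Fcgr3 had 285 and 172 FPKM in basophils, against 4 and 1 FPKM in natural helper cells (6.14 ± 0.58, adjusted p = 0.000209). Fcgr2b, the inhibitory IgG receptor, had 111 and 103 FPKM in basophils, against 2 and 1 FPKM in natural helper cells (5.46 ± 0.49, adjusted p = 0.000154).

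T cell receptor proximal signalling genes are the counterpart of that chain in T cells. In limma 0 of 18 were higher in basophils and 2 higher in natural helper cells (0 and 10 at an unadjusted p under 0.05). For all genes the shares were 6.39% and 12.3%, so 2 of 18 was near the share of all genes. Zap70, the kinase that binds the T cell receptor, had 4 and 0 FPKM in basophils, against 61 and 76 FPKM in natural helper cells (-4.95 ± 0.95, adjusted p = 0.0073, and 0.0546 without basophil library 2 in a range of 0.00107 to 0.0868). Cd3g had 17 and 1 FPKM in basophils, against 115 and 131 FPKM in natural helper cells, and was not called (-4.37 ± 1.35, adjusted p = 0.0501), although it was without basophil library 1 (0.0279, in a range of 0.0227 to 0.29). The count of members higher in natural helper cells was 7 without basophil library 1, 0 without basophil library 2, and 1 without either natural helper cell library, and 5 and 4 under median-ratio scaling and quantile normalization. Basophil library 1 held more T cell marker mRNA than basophil library 2, as the sums above show.

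Granule proteases and cytotoxic proteins had 12 of 23 members higher in basophils and 1, Gzmk at 0 and 0 FPKM in basophils against 1 and 1 FPKM in natural helper cells, on the other side. Gzmb, the granzyme of cytotoxic lymphocytes, had 2582 and 2919 FPKM in basophils, against 13 and 4 FPKM in natural helper cells (8.36 ± 0.68, adjusted p = 9.18e-05). Gzmc, its neighbour, had 1780 and 1670 FPKM in basophils, against 1 and 3 FPKM in natural helper cells (9.25 ± 0.62, adjusted p = 3.26e-05). These 2 granzymes were higher in basophils than Mcpt8 by level in FPKM. Prss34, a basophil tryptase, had 700 and 48 FPKM in basophils and was listed at 0 in natural helper cells (7.53 ± 0.99, adjusted p = 0.0011). Cpa3, the mast cell and basophil carboxypeptidase, had 278 and 231 FPKM in basophils, against 6 and 12 FPKM in natural helper cells (4.74 ± 0.83, adjusted p = 0.00501). Srgn, the proteoglycan that packs granule proteases, was abundant in both, at 5777 and 6010 FPKM in basophils and 1293 and 1845 FPKM in natural helper cells (1.93 ± 0.23, adjusted p = 0.000722). Gzma overlapped between the groups, with 51 and 9 FPKM in basophils and 21 and 19 FPKM in natural helper cells. Granzymes C to G are similar in sequence, and the counting could split their reads.

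Myeloid transcription factors were higher in basophils for 14 of 22 members, and lymphoid transcription factors were higher in natural helper cells for 13 of 26. Cebpa, a myeloid master regulator, had 81 and 108 FPKM in basophils, against 1 and 1 FPKM in natural helper cells (5.56 ± 0.49, adjusted p = 0.000137). Gfi1b, a repressor known from red cell and platelet precursors, had 26 and 25 FPKM in basophils and was listed at 0 in natural helper cells (4.73 ± 0.47, adjusted p = 0.000287). Sfpi1, which encodes PU.1, had 73 and 85 FPKM in basophils, against 4 and 1 FPKM in natural helper cells (4.66 ± 0.65, adjusted p = 0.00154). The 3 factors were near 0 in natural helper cells. Klf4, a Kruppel-like factor placed in the same list, went the other way, with 6 and 2 FPKM in basophils, against 114 and 47 FPKM in natural helper cells (-4.02 ± 0.66, adjusted p = 0.00356).

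On the lymphoid side, Rora, the orphan receptor that natural helper cells need to develop, had 11 and 14 FPKM in basophils, against 158 and 115 FPKM in natural helper cells (-3.34 ± 0.62, adjusted p = 0.00623). Id2, an inhibitor of E proteins, had 66 and 23 FPKM in basophils, against 281 and 272 FPKM in natural helper cells (-2.79 ± 0.48, adjusted p = 0.00431). Zeb2, a zinc finger repressor, was the member on the other side, at 41 and 32 FPKM in basophils, against 2 and 1 FPKM in natural helper cells (3.93 ± 0.39, adjusted p = 0.000283). Ets1 was shared, with 283 and 243 FPKM in basophils and 191 and 189 FPKM in natural helper cells (0.46 ± 0.26, adjusted p = 0.241). Nfil3, another factor of innate lymphocyte development, had 158 and 157 FPKM in basophils, against 64 and 109 FPKM in natural helper cells, and was not called (0.91 ± 0.35, adjusted p = 0.107). The count of lymphoid factors higher in natural helper cells was 6 without basophil library 2 and 7 without either natural helper cell library.

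Genes of early lymphocyte stages gave 2 of 7 higher in basophils and 3 higher in natural helper cells. Rag1, a recombinase gene of lymphocyte precursors, was listed at 0 in both basophil libraries and had 15 and 10 FPKM in natural helper cells. It passed the filter on low values only through the natural helper cell libraries, so its difference is a description, although it stands among these 3 genes. Dntt, the terminal transferase of the same stage, had 0 and 1 FPKM in basophils, against 12 and 23 FPKM in natural helper cells (-3.64 ± 0.51, adjusted p = 0.00156). Cd7, a lymphocyte surface protein, was on the basophil side, at 232 and 244 FPKM, against 21 and 7 FPKM in natural helper cells (4.17 ± 0.56, adjusted p = 0.00121). The low Rag1 and Dntt values were seen in both natural helper cell libraries and in neither basophil library above 1 FPKM. Without either natural helper cell library Rag1 missed the filter on low values and was not tested, and 1 gene of the list was then higher in natural helper cells. Those higher in basophils numbered 3 without basophil library 1, and 1 without any other single library.

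Because Gata2 marked one cell type and Gata3 the other, the GATA letters in the promoters of genes from both sides are shown. The windows are 30 bases of RefSeq promoter sequence (mouse GRCm38.p6), 5′ to 3′ along the gene's strand, with the match in capitals. The letters searched were AGATAA and TGATAA on both strands, so TTATCT and TTATCA are the same motif read from the other strand, in the span that runs 250 bases before to 50 bases after the gene start. Fcer1a (chr1:173227304-173227333, minus strand) and Il6 (chr5:30013047-30013076, plus strand) were higher in basophils, and Il3 (chr11:54267363-54267392, minus strand), Ccl1 (chr11:82179826-82179855, minus strand) and Il1rl1 (chr1:40429478-40429507, plus strand) were higher in natural helper cells.
Fcer1a: acaaccctattaTTATCTctggagaaagcc
Il6: caacaaagatttTTATCAaatgtgggattt
Il3: aggttccatgtcAGATAAagctgcttctga
Ccl1: ccccgggccttcTGATAAaagctcagtaca
Il1rl1: ctgtaaagtaacTGATAAggaaacagggag
The matches began 92, 55, 101, 31 and 80 bases before the gene start in that order. These windows are a selection, and matches of Ccr8, Csf2 and a further one of Il1rl1 are not shown. Of the 15 largest differences towards basophils, 11 genes had a promoter there and 0 held the letters. Towards natural helper cells it was 2 of 11. Such letters occurred in 19.0% of all 27025 promoters of the table and in 10.9% of the 9980 tested genes that had a promoter there. They occurred in 13.7% of the 658 such genes higher in basophils and in 10.6% of the 1225 such genes higher in natural helper cells. Whether these shares differ was not tested, and a match is a description of the sequence and not a binding site.

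Of 12 enzymes of eicosanoid synthesis tested, 5 were higher in basophils, 1 was higher in natural helper cells and 6 were not called. Of 11 eicosanoid receptors tested, 1 was higher in basophils, 6 were higher in natural helper cells and 4 were not called. Alox5ap, which presents arachidonic acid to 5-lipoxygenase, had 935 and 927 FPKM in basophils, against 10 and 5 FPKM in natural helper cells (6.84 ± 0.35, adjusted p = 8.82e-06). Alox15, a lipoxygenase of eosinophils and macrophages, had 51 and 44 FPKM in basophils and was listed at 0 in natural helper cells (5.60 ± 0.37, adjusted p = 3.15e-05). Ptgs2, the inducible cyclooxygenase, had 224 and 361 FPKM in basophils, against 21 and 31 FPKM in natural helper cells (3.43 ± 0.48, adjusted p = 0.0015). Cysltr1, the cysteinyl leukotriene receptor, had 1 and 0 FPKM in basophils, against 16 and 14 FPKM in natural helper cells (-3.50 ± 0.58, adjusted p = 0.00385). Ltb4r1, the leukotriene B4 receptor, had 3 and 2 FPKM in basophils, against 19 and 24 FPKM in natural helper cells (-2.69 ± 0.29, adjusted p = 0.000406), and Ptgir, the prostacyclin receptor, had 9 and 3 FPKM in basophils, against 38 and 41 FPKM in natural helper cells (-2.68 ± 0.42, adjusted p = 0.00303). For these 3 receptors no library of one group reached the other. The receptor count towards natural helper cells was 3 without basophil library 2, and 4 without any other single library, and that towards basophils was 0 without basophil library 1 or either natural helper cell library. The enzyme count towards natural helper cells was 0 without basophil library 2 or natural helper cell library 2.

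Paired and inhibitory receptors were higher in basophils for 11 of 23 members, and all 11 kept their call when single libraries were left out. Under median-ratio scaling and quantile normalization 16 and 15 were called. Gp49a had 2535 and 2416 FPKM in basophils, against 59 and 98 FPKM in natural helper cells (5.01 ± 0.46, adjusted p = 0.000191), and Lilrb4, its inhibitory counterpart and near copy with which it may share reads, had 1690 and 1639 FPKM in basophils, against 57 and 88 FPKM. Cd200r3, an activating receptor of basophils and mast cells, had 212 and 160 FPKM in basophils, against 0 and 1 FPKM in natural helper cells (7.03 ± 0.63, adjusted p = 0.000157). Klrg1, an inhibitory lectin of mature lymphocytes, had 2 and 0 FPKM in basophils, against 33 and 43 FPKM in natural helper cells (-4.48 ± 0.62, adjusted p = 0.00143). Cd200r1, an inhibitory receptor, was the other member called higher in natural helper cells, at 27 and 19 FPKM in basophils, against 57 and 46 FPKM in natural helper cells (-1.14 ± 0.28, adjusted p = 0.0222). Its adjusted p was 0.138 without basophil library 2, 0.122 without natural helper cell library 1 and 0.0527 without natural helper cell library 2, in a range of 0.0061 to 0.138 over the alternatives, and the call was lost under median-ratio scaling.

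Pattern recognition receptors were higher in basophils for 7 of 20 members and higher in natural helper cells for 1. Clec4d and Clec4e encode C-type lectins that bind microbial glycolipids. Clec4d had 544 and 396 FPKM in basophils, against 8 and 1 FPKM in natural helper cells (6.78 ± 0.78, adjusted p = 0.000557). Clec4e had 253 and 271 FPKM in basophils, against 4 and 0 FPKM in natural helper cells (6.88 ± 0.81, adjusted p = 0.000639). Nlrp3, the inflammasome sensor that leads to IL-1beta processing, had 393 and 461 FPKM in basophils, against 8 and 8 FPKM in natural helper cells (5.57 ± 0.36, adjusted p = 2.97e-05). Tlr1 was the member on the other side, at 2 and 3 FPKM in basophils, against 16 and 9 FPKM in natural helper cells (-1.91 ± 0.32, adjusted p = 0.00417). The count towards basophils was 4 without natural helper cell library 2, and 11 and 12 under median-ratio scaling and quantile normalization.

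Genes of MHC class II and antigen presentation were higher in basophils for 10 of 16 members. Cd74, the invariant chain, had 1266 and 899 FPKM in basophils, against 32 and 28 FPKM in natural helper cells (5.11 ± 0.69, adjusted p = 0.00131). H2-Aa had 570 and 339 FPKM in basophils, against 17 and 8 FPKM in natural helper cells (5.11 ± 0.94, adjusted p = 0.0061), and H2-Ab1 had 457 and 274 FPKM in basophils, against 12 and 7 FPKM (5.12 ± 0.90, adjusted p = 0.00501). H2-DMb2, which B cells also carry, had 38 and 65 FPKM in basophils, against 1 and 0 FPKM in natural helper cells (5.16 ± 0.88, adjusted p = 0.0043). B cell markers stood at 187 and 340 FPKM in the same basophil libraries and monocyte and macrophage markers at 775 and 158 FPKM, against 111 and 19 FPKM in natural helper cells, and their part in the class II values was not tested. Cd74, H2-Aa and H2-Ab1 were higher in basophil library 1 and H2-DMb2 in basophil library 2. The order of 2 libraries cannot tell which cells carried the mRNA. Icosl, the ICOS ligand, went the other way, at 6 and 3 FPKM in basophils, against 42 and 35 FPKM in natural helper cells (-2.89 ± 0.39, adjusted p = 0.0013).

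Of 18 costimulatory and checkpoint receptors 3 were higher in basophils and 5 higher in natural helper cells, beside 6.39% and 12.3% of all genes, and of 14 TNF family ligands 0 and 6 were (0 and 7 at an unadjusted p under 0.05). The ligand count towards natural helper cells was 4 under either other scaling. Tnfrsf18, the receptor GITR, had 37 and 24 FPKM in basophils, against 291 and 382 FPKM in natural helper cells (-3.44 ± 0.42, adjusted p = 0.000758). Tnfrsf25, the death receptor DR3 whose ligand is TL1A, had 2 and 2 FPKM in basophils, against 42 and 53 FPKM in natural helper cells (-4.01 ± 0.33, adjusted p = 9.8e-05). Tnfsf11, which encodes RANKL, had 1 and 0 FPKM in basophils, against 56 and 57 FPKM in natural helper cells (-5.35 ± 0.91, adjusted p = 0.00419). Havcr2, the receptor TIM-3, was on the basophil side with 131 and 84 FPKM, against 2 and 3 FPKM in natural helper cells (4.93 ± 0.38, adjusted p = 7.24e-05). Icos had 5 and 0 FPKM in basophils, against 100 and 201 FPKM in natural helper cells, but its adjusted p of 0.0497 was above 0.05 whichever of the 4 libraries was left out (0.0599 and 0.253 without basophil libraries 1 and 2, 0.14 and 0.182 without natural helper cell libraries 1 and 2), in a range of 0.0187 to 0.253 over the alternatives. The ligand count was 1 without basophil library 2, 3 without natural helper cell library 1 and 2 without natural helper cell library 2, with Tnfsf11 called in each. The receptor counts towards natural helper cells were 3 without basophil library 1 and 2 without any other single library, and those towards basophils were 1 without basophil library 1 or either natural helper cell library, and 2 without basophil library 2.

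Adhesion molecules and integrins gave 8 members higher in basophils, among them the sorting gene Itga2, and 1 higher in natural helper cells out of 29. For all genes the shares were 6.39% and 12.3%. Without basophil library 1, 5 were higher in basophils. Cd9, a tetraspanin, had 1619 and 1512 FPKM in basophils, against 68 and 35 FPKM in natural helper cells (4.97 ± 0.42, adjusted p = 0.000102). Itga2b, the integrin chain CD41 known from platelets, had 181 and 177 FPKM in basophils, against 1 and 1 FPKM in natural helper cells (6.49 ± 0.60, adjusted p = 0.000189). The 5 other platelet markers tested gave no call in either direction, and the full list summed to 230 and 190 FPKM in basophils, of which Itga2b held most. Itgav was the member higher in natural helper cells, at 6 and 1 FPKM in basophils, against 28 and 39 FPKM (-3.19 ± 0.55, adjusted p = 0.00454). Integrin beta chains Itgb7 and Itgb2 were present in both cell types at 48 FPKM or more in every library and were not called at a log2 difference of 1.

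Genes induced early after stimulation or cell handling were high in both cell types and differed by member. Of 22 tested, 2 were higher in basophils and 6 higher in natural helper cells, with sums of 4766 and 5155 FPKM in basophils and 5094 and 3816 FPKM in natural helper cells. Ier3, an NF-kappaB target, had 1960 and 1908 FPKM in basophils, against 20 and 36 FPKM in natural helper cells (6.12 ± 0.57, adjusted p = 0.000194). Fosb had 45 and 53 FPKM in basophils, against 634 and 354 FPKM in natural helper cells (-3.25 ± 0.43, adjusted p = 0.00109). Nr4a2, an orphan nuclear receptor, had 12 and 5 FPKM in basophils, against 148 and 110 FPKM in natural helper cells (-3.86 ± 0.66, adjusted p = 0.0043). Junb had 488 and 657 FPKM in basophils, against 932 and 911 FPKM in natural helper cells (adjusted p = 0.16), and Dusp1, a phosphatase of MAP kinases, had 342 and 429 FPKM in basophils, against 250 and 125 FPKM (adjusted p = 0.0922). The count towards natural helper cells was 3 without either basophil library or natural helper cell library 1, and 4 without natural helper cell library 2.

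Of 17 Bcl2 family genes, which promote or oppose cell death, 4 were higher in basophils and 3 higher in natural helper cells, beside 6.39% and 12.3% of all genes. The count towards basophils was 2 without natural helper cell library 2, and that towards natural helper cells was 1 without basophil library 2 or either natural helper cell library. Bcl2, a survival gene, had 4 and 1 FPKM in basophils, against 49 and 38 FPKM in natural helper cells (-3.80 ± 0.57, adjusted p = 0.0022). Pmaip1, which encodes the death-promoting protein NOXA, had 128 and 89 FPKM in basophils, against 5 and 4 FPKM in natural helper cells (4.30 ± 0.22, adjusted p = 8.82e-06). Bcl2l11, which encodes BIM, had 80 and 72 FPKM in basophils, against 19 and 21 FPKM in natural helper cells (1.87 ± 0.22, adjusted p = 0.00063). Mcl1, another survival gene of the family, was shared, at 143 and 100 FPKM in basophils and 86 and 84 FPKM in natural helper cells (0.49 ± 0.25, adjusted p = 0.204). Socs2, a STAT5 target, had 19 and 18 FPKM in basophils, against 61 and 62 FPKM in natural helper cells (-1.68 ± 0.24, adjusted p = 0.00184), while Cish, another one, had 143 and 123 FPKM in basophils and 143 and 143 FPKM in natural helper cells (adjusted p = 0.954).

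Metabolic and housekeeping lists varied in how many members were called, and a few metabolic genes stood out. Cyp11a1, the first enzyme of steroid synthesis, had 875 and 845 FPKM in basophils, against 1 and 0 FPKM in natural helper cells (9.25 ± 0.56, adjusted p = 2.11e-05). Arg1, arginase 1, had 3 and 0 FPKM in basophils, against 133 and 90 FPKM in natural helper cells (-5.79 ± 1.02, adjusted p = 0.00509). Odc1, the polyamine enzyme that uses the ornithine made by arginase, had 76 and 34 FPKM in basophils, against 375 and 813 FPKM in natural helper cells (-3.41 ± 0.43, adjusted p = 0.00091). Pfkp, a phosphofructokinase, had 98 and 97 FPKM in basophils, against 16 and 17 FPKM in natural helper cells (2.49 ± 0.20, adjusted p = 8.14e-05), and 12 of 15 glycolysis genes were not called. Cell cycle genes gave 0 calls among 25 in limma, with 1 at an unadjusted p under 0.05, and unfolded protein response genes gave 0 among 17, with 2 at an unadjusted p under 0.05. In the fit of the 4 libraries alone 2 cell cycle genes were called higher in natural helper cells. Of 24 cytosolic ribosomal protein genes 12 were called higher in natural helper cells, and 23 passed in that direction at an unadjusted p under 0.05. The count was 3 under median-ratio scaling or quantile normalization, 12 without basophil library 1, 0 without basophil library 2, 18 without natural helper cell library 1 and 0 without natural helper cell library 2. Oxidative phosphorylation genes had 3 of 20 called higher in natural helper cells, beside 12.3% of all genes, and 10 passed in that direction at an unadjusted p under 0.05. The count was 1 under median-ratio scaling and 3 under quantile normalization. None of these calls was kept in every fit that left out a single library.

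**Figure D4:**
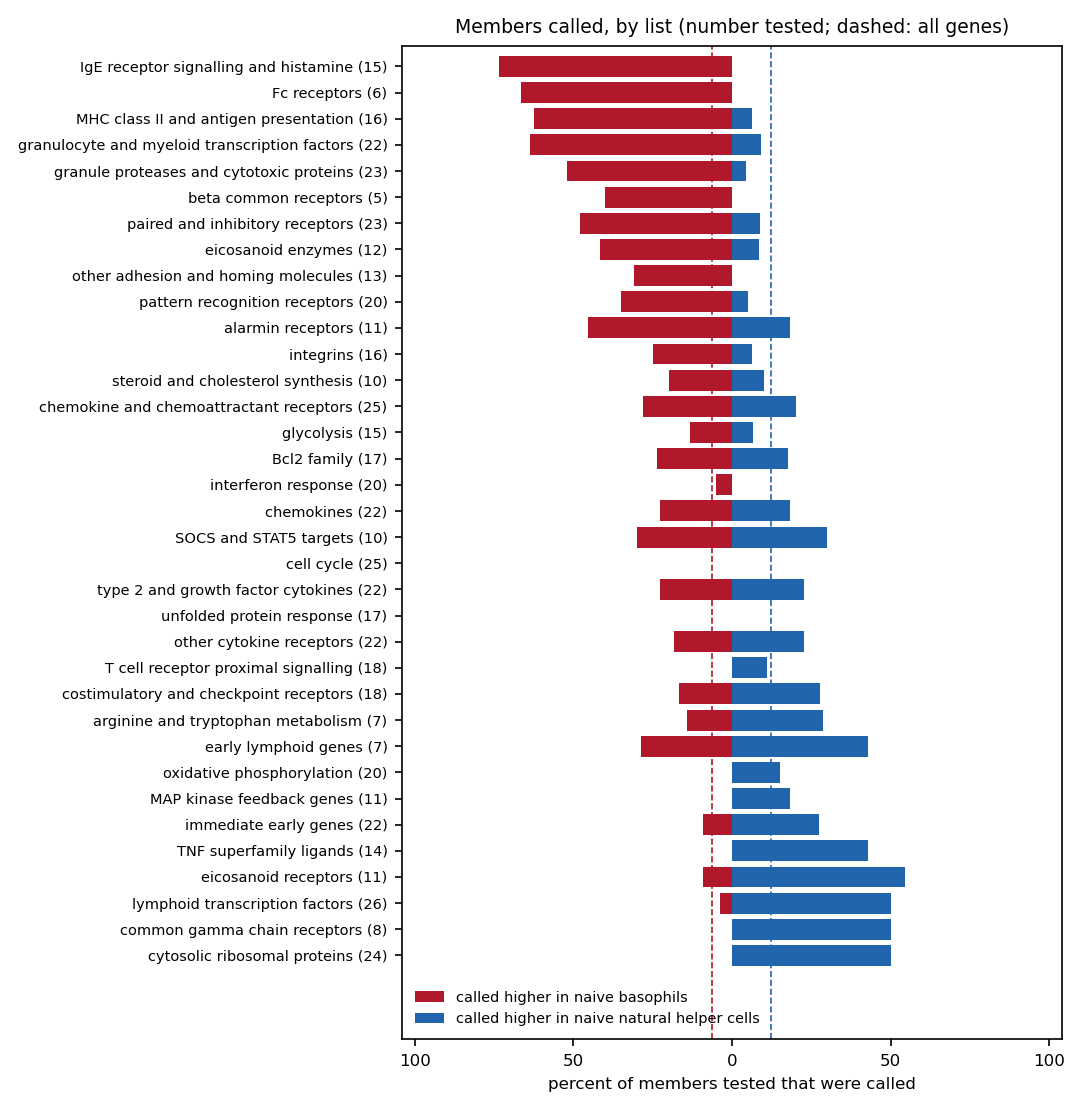
Share of the tested members of each pathway list called higher in naive basophils (red, left of 0) and in naive natural helper cells (blue, right of 0), in percent of members tested, with the number tested beside each name and dashed lines at the shares of all genes, 6.39% and 12.3%. Among these lists, IgE receptor signalling and histamine genes reach farthest to the left with 11 of 15, and lymphoid transcription factors, with 13 of 26, lie at the bottom right. The 11 include genes of the receptor used for sorting.

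Several of these genes are neighbours, and the order along the chromosome (RefSeq GRCm38 gene order, blocks chosen after the values were seen) shows the split within clusters. In the interleukin block of chromosome 11, Il4, Il13, Rad50, Il5 and, farther on, Csf2 and Il3 follow each other. Il4 was higher in basophils, Il13 was not called, and Il5, Csf2 and Il3 were higher in natural helper cells. Slc22a4, a solute carrier gene between Il5 and Csf2, was called higher in basophils at 1 and 1 FPKM, against 0 and 0 FPKM in natural helper cells (1.00 ± 0.16, adjusted p = 0.0033). Rad50, a DNA repair gene that lies between Il13 and Il5, was low in both, at 3 and 1 FPKM in basophils, against 11 and 16 FPKM in natural helper cells (-2.34 ± 0.40, adjusted p = 0.00435). In all, 2 of the 12 tested genes of the block were higher in basophils and 5 higher in natural helper cells.

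The CC chemokine block of the same chromosome was divided by its ends. At one end Ccl2, Ccl11 and Ccl1 were called higher in natural helper cells, with Ccl7, Ccl12 and Ccl8 between them not called. The calls of Ccl2 and Ccl11 were lost without single libraries, as given above. At the other end Ccl9, Ccl6, Ccl3 and Ccl4 were all higher in basophils, next to Ccl5, which was not called. Most genes between the ends, such as the Slfn family and Taf15, were not called. Between them, Rffl was called higher in basophils and Nle1 higher in natural helper cells. In the granule protease block of chromosome 14, from Cma1 to Gzmb, 11 of 13 tested genes were higher in basophils and 0 were higher in natural helper cells, although Cma1 and Mcpt4 lost their calls without single libraries, as given above. In the IL-1 receptor block of chromosome 1, Il1r2, Il18r1 and Il18rap were higher in basophils, and Il1rl1 between them was higher in natural helper cells.

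**Figure D5:**
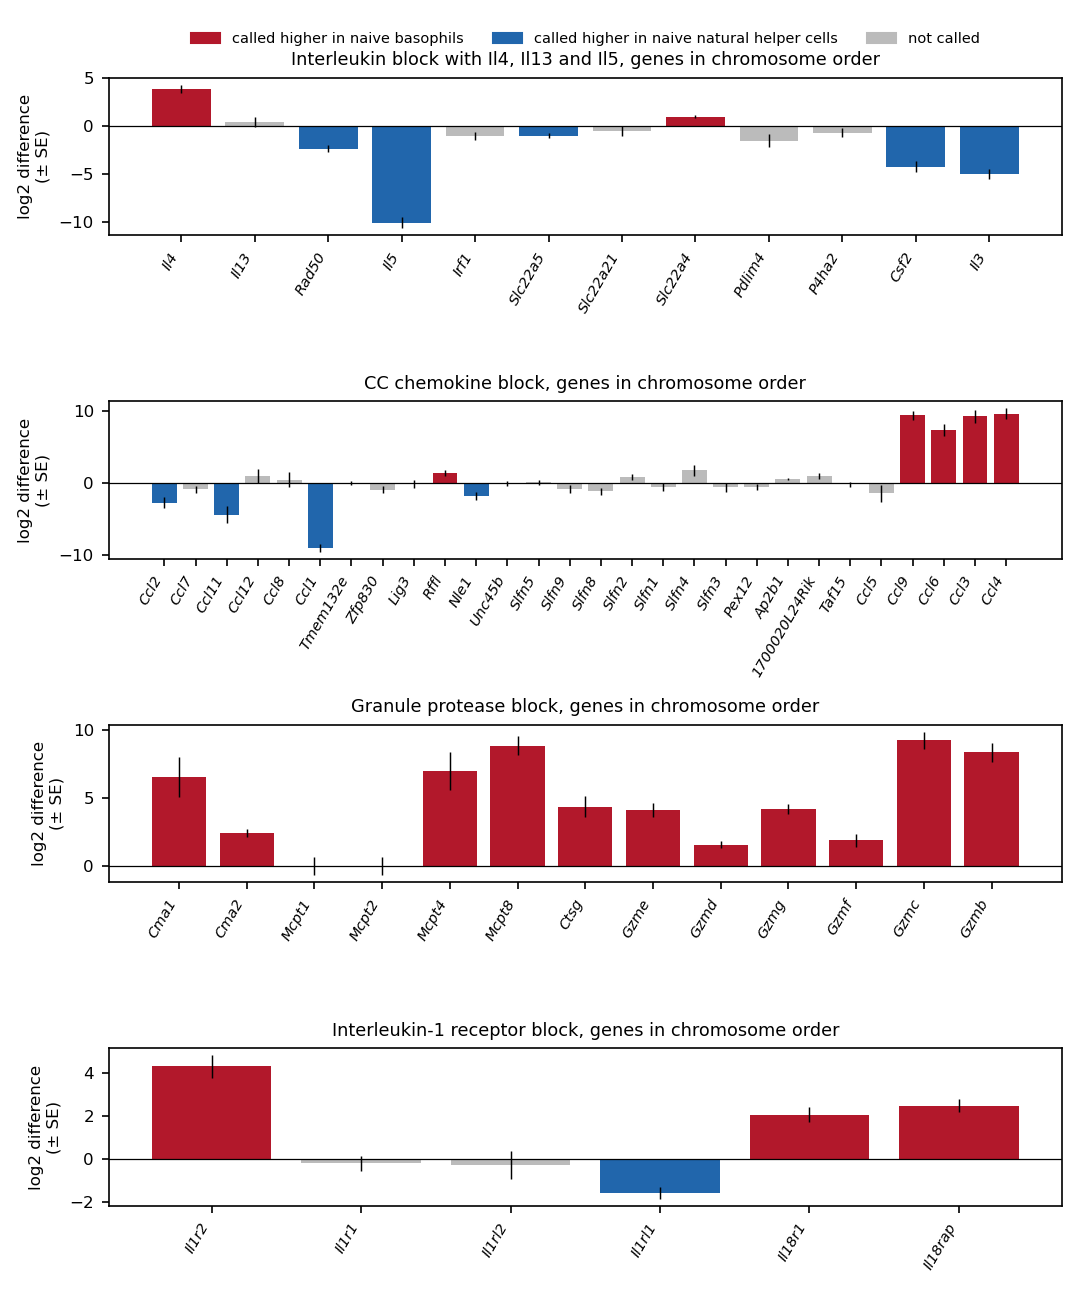
Log2 difference, basophils minus natural helper cells, with its standard error, of the tested genes of 4 blocks in chromosome order, red where called higher in naive basophils, blue where called higher in naive natural helper cells and grey where not called. In the interleukin block Il4 (3.88) and Slc22a4 (1.00) are positive and called while Il5 (-10.06), Csf2 and Il3 are negative and called, and in the chemokine block the negative Ccl1 (-8.99) and the positive Ccl3 and Ccl4 (9.34 and 9.69) lie at opposite ends.

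The same gates were also sorted after papain, in 4 libraries that the naive comparison does not use except for the estimate of spread. In them 1713 genes (12.0%) were higher in papain basophils and 870 (6.1%) higher in papain natural helper cells. Of the 911 genes higher in naive basophils, 449 (49.3%) were called in the same direction after papain, and of the 1749 higher in naive natural helper cells, 445 (25.4%) were. Opposite calls numbered 11 and 68. The naive difference minus the papain difference passed limma at an adjusted p under 0.05 for 6.75% of all genes tested, and for 5 of the 20 genes always reported: Il13, Il6, Il1rl1, Fcer1a and Cyp11a1. Basophil markers had median levels of 26.5 and 57 FPKM in papain basophils, against 471 and 212.5 FPKM in naive basophils, so the sorts were not equal in marker content. Of the pathway lists, IgE receptor signalling and histamine had 7 of 15 members called higher in papain basophils, and lymphoid transcription factors had 13 of 26 higher in papain natural helper cells.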

How the data were processed

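RNA of sorted lung cells was sequenced from NEBNext poly(A) libraries made from 10 ng of RNA, per the labels' protocols. The reads were processed with TopHat 1.4.0 and Cufflinks 1.3.0 on mm9, per the submitters' processing notes; the annotation is not given in the sources used here. The deposited table holds 1 score per gene and library, which the authors left as FPKM rounded to whole numbers, as read from the values and the tool. Commas were removed from 1008 cells, and 3 cells next to 0 were set to 0. Genes with 1 FPKM or more in 2 libraries were tested as log2(FPKM + 1) in limma 3.58.1 (R 4.3.3), with 1 coefficient for each of 8 groups over 15 libraries, eBayes with trend and Benjamini-Hochberg adjustment. On simulated data the fit recovered changed genes but made more false calls than its threshold allows.

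The 52 gene lists (17 of markers) and the genes compared were chosen with earlier results of these data known. The text names 20 fixed genes, the 15 largest differences per direction at a mean of 10 FPKM without overlap, up to 4 called and 2 uncalled members per list, all marker list members and the 10 highest called genes per group. Csf1, Lif, Cxcr4, Crlf2, Fcer1g, Gzmk and the chromosome neighbours were added after their values were seen. A few selected genes are left out of the text. Symbols were used as deposited, and 19085 of 21110 are in the reference list of names. Promoters and gene order come from RefSeq GRCm38.p6, while the table is on mm9, and only the promoter windows carry coordinates.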

Additional observations from a re-analysis of the deposited data

Results flagged for a closer look

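For 5 of the 20 genes always reported, the naive difference between basophils and natural helper cells was not the same as the difference between the same gates after papain, by limma's test of the difference itself over all genes (6.75% of the 14257 genes tested had an adjusted p under 0.05). Il13 gave the widest gap: the naive minus the papain difference was 3.79 ± 0.78 (adjusted p = 0.0242). After papain Il13 had 20 and 71 FPKM in basophils, against 407 and 377 FPKM in natural helper cells (-3.34 ± 0.55, adjusted p = 0.00477), while the naive groups overlapped. Il6 differed by 2.09 ± 0.43 (adjusted p = 0.0258), with 1066 and 828 FPKM in papain basophils, against 32 and 58 FPKM in papain natural helper cells. Il1rl1 differed by 2.33 ± 0.39 (adjusted p = 0.0115), with 27 and 33 FPKM in papain basophils, against 436 and 492 FPKM in papain natural helper cells. Fcer1a differed by 2.96 ± 0.58 (adjusted p = 0.0196), with 23 and 18 FPKM in papain basophils, and was listed at 0 in papain natural helper cells. Cyp11a1 differed by 3.34 ± 0.80 (adjusted p = 0.0434), with 101 and 281 FPKM in papain basophils, against 1 and 3 FPKM in papain natural helper cells. The direction was the same in naive and papain cells for Il6, Il1rl1, Fcer1a and Cyp11a1. Il4 did not pass this test (2.22 ± 0.57, adjusted p = 0.053). In natural helper cells the naive values, set beside the papain values above, were 93 and 218 FPKM for Il13 and 244 and 288 FPKM for Il1rl1. Each gap is a difference between 2 differences and does not say which cell type differed between naive and papain sorts. The basophil marker medians were 26.5 and 57 FPKM in papain basophils, against 471 and 212.5 FPKM in naive basophils, and the part of that marker content was not tested.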

How the results depend on the processing

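Of the 351 genes that the naming rule selects, 209 were called; 91 of these kept their call in every alternative, and 0 changed direction. The fit of the 4 libraries alone kept 58.4% of the 209 calls, the lowest share of any alternative. Genes higher in basophils (911) numbered 602 with a pseudocount of 5, 1374 with median-ratio scaling and 459 at a log2 difference of 2. When single libraries were left out they numbered 605 to 721. Genes higher in natural helper cells (1749) numbered 844 with a pseudocount of 5, 923 in the 4 libraries alone, 537 at a log2 difference of 2, and 651 to 1905 when single libraries were left out, with 651 without basophil library 2, 779 without natural helper cell library 1 and 1161 without natural helper cell library 2. Genes called in the same direction after papain (894) numbered 540 with a pseudocount of 5, 516 at a log2 difference of 2, and 627 to 750 when single libraries were left out. Genes whose naive and papain differences were unequal (963) numbered 619 with a filter of 5 FPKM and 328 to 986 when single libraries were left out, with 328 without basophil library 2 and 504 without natural helper cell library 1. The cause of these moves was not tested, except that a stricter log2 threshold counts fewer genes by construction. The labels do not say whether replicate numbers pair the samples, and they were not treated as pairs. The deviations of same-numbered basophil and natural helper cell libraries correlated at 0.0239, which cannot settle pairing with 2 libraries a group. With the replicate block the 4 counts were 872, 1587, 791 and 677. Calls with 2 libraries a group assume that all groups share 1 spread, and whole-number FPKM hides variation in genes near 0. With a mean of 5 FPKM or more in the higher group, 736 and 1243 genes were called.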
